A study of Mus musculus with 12 samples.

Results

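The insulin-like growth factor (IGF) axis was followed in mouse embryonic fibroblasts (MEFs) through 10 genes: the ligands Igf1 and Igf2, the receptors Igf1r and Igf2r, and the binding proteins Igfbp2, Igfbp3, Igfbp4, Igfbp5, Igfbp6 and Igfbp7. They are 10 of 18193 genes named on the arrays, and for each the brightest of its probe sets, by the mean of all 12 arrays, was used. Igfbp2 was selected on its large fall in these same data, so its values are given as a description with no test, and the other 9 genes were tested. The study compared MEFs that differ in the retinoblastoma (Rb) gene family, and the member values ask how this growth factor system differed between them. RNA from 3 wild-type MEF samples (WT), 3 samples labelled with an Rb1 deletion (Rb1KO), 3 with Rb1, p107 (Rbl1) and p130 (Rbl2) deleted (TKO) and 3 with the same deletions and RasG12D, an activated form of Ras (TKO-Ras), was hybridised to Affymetrix MOE430 2.0 arrays. All groups were untreated cells in exponential growth, kept per the methods in medium with fetal bovine serum. The TKO cells came from another laboratory. The labels call the samples biological replicates without naming embryos or separate cultures, so p-values measure the spread between these samples only.

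IGF1 and IGF2 are secreted peptides that act mainly through the receptor tyrosine kinase encoded by Igf1r, while Igf2r encodes a receptor that takes up IGF2 and sends it to lysosomes. The IGF binding proteins hold the ligands outside the cell, carry them and limit or prolong their access to the receptor, and proteases that cleave the binding proteins set the ligands free. In fibroblasts the axis is known for driving growth and survival, and Igf2 and Igf2r are imprinted genes, each transcribed mainly from 1 parental copy in the mouse.

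Values are log2 RMA signals, and a difference of 1 is a 2-fold difference in signal. Background was set from 44 probe sets of olfactory receptors, which fibroblasts do not use, at their 95th percentile of 5.13. Pairs of arrays within a group correlated at r = 0.9904 to 0.9958 in the 3 knockout groups and at 0.9695 to 0.9946 in WT. WT replicate 3 stood apart, with a mean correlation of 0.9736 with the other WT arrays, and its Eif2s3y signal, from the Y chromosome, was 4.91 against 8.63 and 9.12 on WT replicates 1 and 2. Results for the 10 genes that rest on WT are therefore also given without it. Eif2s3y (3.01 to 3.31) and Xist (4.63 to 5.13) were at background on all knockout arrays, while Xist was 8.79 to 11.57 in WT, so sex or line of origin and genotype cannot be told apart in comparisons with WT. In the check of the genotypes, Rb1 lay at 8.31 to 8.70 on WT arrays, 7.51 to 7.74 on the arrays labelled Rb1KO, 6.97 to 7.43 on TKO arrays and 7.45 to 7.66 on TKO-Ras arrays, and whether its probes lie in the deleted part is not given in the sources used here. Rbl1 lay at 8.18 to 8.32 on WT arrays, at 8.32 or above on Rb1KO arrays and at or under 5.12 on TKO and TKO-Ras arrays, and Rbl2 at 7.54 to 7.90 in WT and 4.60 to 5.71 in TKO and TKO-Ras. Rbl2 was under background, 3.80 to 4.47, on the arrays labelled Rb1KO, although their label names only Rb1, so every direction drawn from that group is that of the arrays so labelled. Of 12 fibroblast markers, 11, 12, 10 and 9 were above background on every array of WT, Rb1KO, TKO and TKO-Ras, with Thy1 at background in TKO and TKO-Ras and Lum at background in TKO-Ras. Of the lists of other cell types, Ptprc and Adgre1 (macrophage), Pecam1 and Cdh5 (endothelial), Myod1 and Myog (muscle) and Cdh1 (epithelial) were at background in every group. Above background on every array of WT, Rb1KO, TKO and TKO-Ras were 4, 4, 4 and 5 of 10 macrophage and leukocyte markers. The counts were 3, 4, 4 and 4 of 10 for endothelium, 5, 4, 5 and 5 of 10 for muscle and 3, 4, 4 and 4 of 8 for epithelium. Among the genes of these lists above background, Krt19 was 5.11 to 9.09 in WT and 10.20 to 10.93 in TKO-Ras. Cd14 was 6.13 to 6.78 in WT and 8.16 to 8.59 in TKO-Ras, and Acta1 was 9.21 and 9.83 on WT replicates 1 and 2. The endothelial gene Eng was 7.05 to 7.97 over all arrays. Of the neural genes, Sox2 was 3.07 to 5.54 in WT and Rb1KO and 8.58 to 10.31 in TKO and TKO-Ras, while Map2 was 10.18 to 10.72 in WT and 3.41 to 4.62 in TKO and TKO-Ras. The summed signal of 8 cartilage and bone markers was 11.47 to 12.16 in WT and 9.31 to 10.59 in the knockouts, with Col11a1 the brightest in WT (11.06 to 11.89), and Acan (4.67 to 4.84 in WT and 6.65 to 7.92 in Rb1KO) and Sox9 (7.15 to 8.53 and 8.95 to 9.16) in the other direction. The part of these genes in the results was not tested. In whole cultures, fewer cells of a type and less RNA per cell cannot be told apart.

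The 250 bases before the RefSeq transcription start (GRCm38.p6) are shown for the 4 binding proteins with the largest differences among groups, picked for the size of those differences and not for their sequence. Capitals mark a GC box (GGGCGG, the letters bound by Sp1) or a TATA box (TATAAA), on either strand.
Igfbp2, chr1:72824230-72824479, plus strand: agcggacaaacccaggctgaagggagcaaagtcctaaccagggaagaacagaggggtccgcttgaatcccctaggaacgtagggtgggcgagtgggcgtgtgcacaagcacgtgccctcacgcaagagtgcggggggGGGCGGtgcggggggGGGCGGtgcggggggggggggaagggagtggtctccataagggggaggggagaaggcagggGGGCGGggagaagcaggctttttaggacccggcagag
Igfbp7, chr5:77408046-77408295, minus strand: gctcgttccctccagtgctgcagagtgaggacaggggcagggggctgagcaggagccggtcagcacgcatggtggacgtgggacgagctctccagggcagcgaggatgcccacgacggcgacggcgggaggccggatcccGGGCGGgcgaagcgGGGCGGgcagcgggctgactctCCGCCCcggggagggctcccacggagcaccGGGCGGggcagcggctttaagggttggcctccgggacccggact
Igfbp6, chr15:102143936-102144185, plus strand: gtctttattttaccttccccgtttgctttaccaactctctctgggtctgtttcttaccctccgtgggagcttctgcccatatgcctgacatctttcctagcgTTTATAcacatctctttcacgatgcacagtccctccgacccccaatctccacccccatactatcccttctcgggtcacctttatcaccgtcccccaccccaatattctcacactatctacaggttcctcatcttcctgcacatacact
Igfbp4, chr11:99040994-99041243, plus strand: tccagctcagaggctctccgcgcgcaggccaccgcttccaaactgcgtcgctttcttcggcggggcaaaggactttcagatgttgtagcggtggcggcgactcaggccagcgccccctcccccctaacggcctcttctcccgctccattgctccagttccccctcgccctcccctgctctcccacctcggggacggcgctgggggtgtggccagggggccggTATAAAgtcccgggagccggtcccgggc

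The windows shown for Igfbp2 and Igfbp7 held 3 and 4 GC boxes and no TATA box, and those of Igfbp6 and Igfbp4 held no GC box and 1 TATA box each. The window at the second start of Igfbp2 held no GC box. The TATA box of Igfbp4 began 28 bases before the start and that of Igfbp6, on the opposite strand, 148 bases before it. Over all 14 windows of the 10 members, with 4 starts of Igf2 and 2 of Igfbp2, 6 windows of 5 genes held a GC box and 2 a TATA box. Of 32851 windows of the same length in the RefSeq table, 32.7% held a GC box and 12.4% a TATA box. The E2F letters TTTCCCGC, TTTCGCGC, TTTGCCGC and TTTGGCGC were in no member window and in 1.86% of all windows. The letters are a description of these windows and say nothing about binding.

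**Figure D1:**
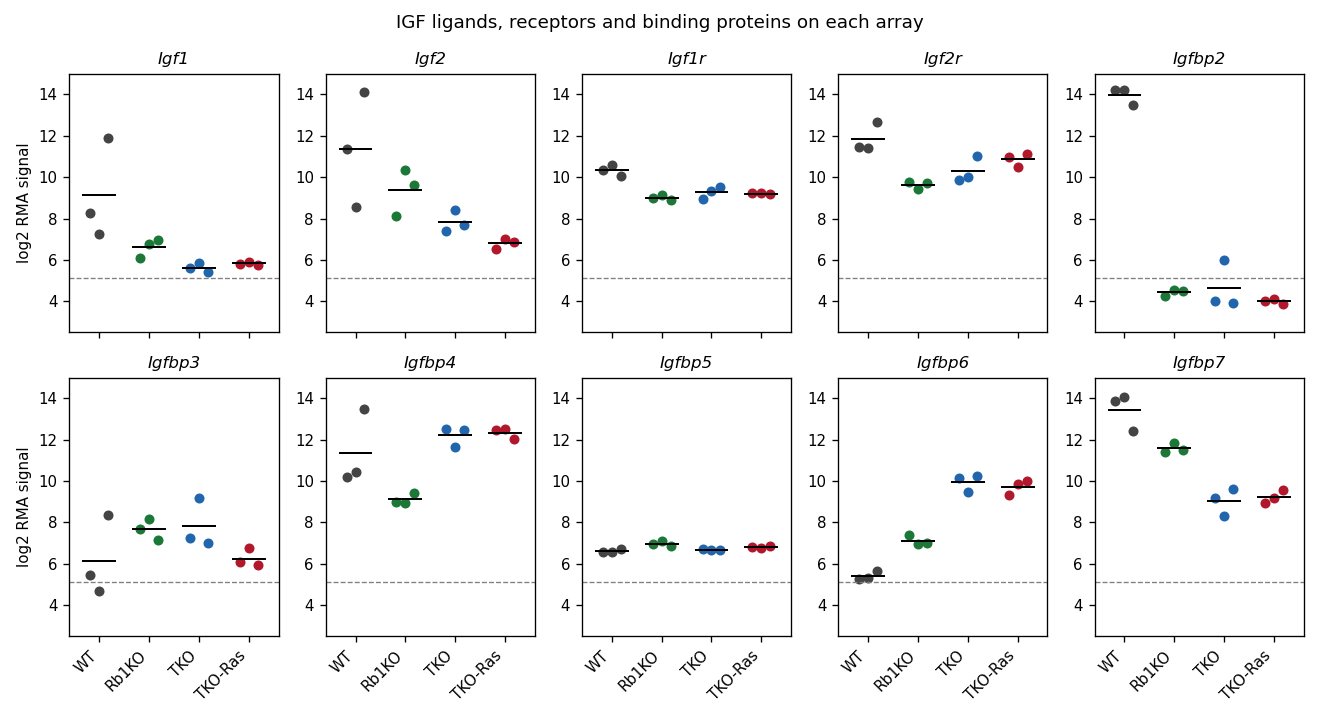
Log2 RMA signal (y axis) of each of the 10 genes on every array, by group (x axis). Points are arrays in replicate order, short lines are group means and the dashed line is the background level of 5.13. Igfbp2 stands at 13.46 to 14.20 in WT and at 3.87 to 6.01 elsewhere, and Igfbp6 and Igfbp7 run in opposite directions over WT, Rb1KO and TKO.

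In TKO against WT, 1 of the 9 tested genes was higher (Igfbp6) and 5 were lower (Igf1, Igf2, Igf1r, Igf2r and Igfbp7), against 13.6% of all genes higher and 9.9% lower in the same fit. In Rb1KO against WT, 2 were higher (Igfbp5 and Igfbp6) and 4 lower (Igf1r, Igf2r, Igfbp4 and Igfbp7), against 15.6% and 12.3% of all genes. Of all genes called, 57.8% were higher in TKO against WT and 55.8% in Rb1KO against WT, and after cyclic loess between arrays 48.7% and 43.5% were. These 2 comparisons share the WT arrays. In the direct comparison of TKO with Rb1KO, 2 were higher (Igfbp4 and Igfbp6) and 1 lower (Igfbp7), against 5.92% and 3.63% of all genes. In TKO-Ras against TKO 0 of the 9 were called by limma, against 3.19% of all genes higher and 4.17% lower. By contrasts without moderation of the variance 0 were called too. At an unadjusted p under 0.05 in limma there were 0 as well, and the share of all genes at that threshold was not worked out. The median difference of the 9 genes was -1.05, -1.86, 0.15 and 0.13 in these comparisons, in that order, beside 0.05, 0.08, -0.03 and 0.04 over all genes.

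Igf1, the ligand made in many tissues under growth hormone, fell from WT to TKO. Its signal was 8.28, 7.23 and 11.87 on WT replicates 1 to 3, then 6.11, 6.78 and 6.97 in Rb1KO, 5.60, 5.87 and 5.41 in TKO and 5.81, 5.92 and 5.77 in TKO-Ras. Every WT array was above every knockout array, and WT replicate 3 was 4.11 above the mean of the other WT arrays. TKO was 11.3-fold lower than WT (log2 difference -3.50, SE 0.859, adjusted p = 0.014), and 2 TKO arrays lay under 5.82, the 99th percentile of the olfactory probe sets, at which the bound is at least 9.8-fold. Without WT replicate 3 the difference was -2.13 (adjusted p = 0.00038). The call was lost without moderation of the variance (adjusted p = 0.053) and with TKO and WT compared alone (adjusted p = 0.088). Rb1KO against WT did not pass (-2.51, adjusted p = 0.058), and it did without WT replicate 3 at a smaller difference (-1.14, adjusted p = 0.016). It also passed without WT replicate 2 (-3.46, adjusted p = 0.0086). Group means fell in the order WT, Rb1KO, TKO-Ras and TKO, and the arrays of TKO and TKO-Ras overlapped. Those of TKO and Rb1KO did not overlap. Their difference did not pass in the fit of all arrays (-0.99, adjusted p = 0.59) and passed with these groups compared alone (adjusted p = 0.031). The other 3 probe sets of Igf1 gave -5.01 to -3.98 in TKO against WT (adjusted p = 0.0051 to 0.012), with TKO and TKO-Ras at background. In Rb1KO against WT all 3 passed, at -3.81 to -3.10 (adjusted p = 0.017 to 0.036), as did the 4 Igf1 probe sets averaged (-3.23, adjusted p = 0.029), and the probe set used passed after a filter on dim probe sets (adjusted p = 0.044).

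Igf2, the fetal ligand, ran in the order WT, Rb1KO, TKO and TKO-Ras, with a wide spread. WT arrays read 11.37, 8.56 and 14.13 and Rb1KO arrays 8.14, 10.34 and 9.60. TKO arrays read 7.41, 8.41 and 7.71 and TKO-Ras arrays 6.52, 7.01 and 6.87. Neighbouring groups in this order overlapped except TKO and TKO-Ras, and no WT array was as low as a TKO array. TKO was 11.4-fold lower than WT (-3.51, SE 1.06, adjusted p = 0.037), but this call was lost without WT replicate 3 (-2.12, adjusted p = 0.064), WT replicate 1 (-3.50, adjusted p = 0.088) or any 1 TKO array (-3.80 to -3.29, adjusted p = 0.068 to 0.12). It was lost as well without moderation (adjusted p = 0.1), with an intensity trend (adjusted p = 0.054), with the mean of both probe sets (-3.03, adjusted p = 0.053) and with the 2 groups compared alone (adjusted p = 0.13). Rb1KO against WT did not pass (-2.00, adjusted p = 0.21), and the difference was -0.61 (adjusted p = 0.62) without WT replicate 3 and -3.40 (adjusted p = 0.0096) without WT replicate 2. TKO against Rb1KO did not pass either (-1.51, adjusted p = 0.48). TKO-Ras lay below TKO on every array with a difference of -1.04, 95% interval -3.36 to 1.27, which did not pass (adjusted p = 0.66). This interval uses the spread pooled over all groups, with an SD of 2.79 in WT beside 0.516 in TKO and 0.254 in TKO-Ras. Over the alternatives run, the adjusted p for this difference ran from 0.055 to 0.83. The second Igf2 probe set, at background in TKO and TKO-Ras, gave -2.55 in TKO against WT (adjusted p = 0.098). The antisense gene Igf2os lay between 5.14 and 5.71 on all arrays and passed in no comparison.

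Igf1r, the signalling receptor, was lower in every knockout group than in WT. WT arrays read 10.35, 10.60 and 10.03, Rb1KO 9.01, 9.15 and 8.87, TKO 8.96, 9.34 and 9.54 and TKO-Ras 9.22, 9.22 and 9.17. Every knockout array lay under every WT array, and the knockout groups lay close together. Rb1KO was 2.49-fold lower (-1.32, SE 0.166, adjusted p = 0.00019) and TKO 2.07-fold lower (-1.05, SE 0.166, adjusted p = 0.0011), and neither call changed without WT replicate 3. TKO and Rb1KO differed by 0.27, 95% interval -0.10 to 0.63, and TKO-Ras and TKO by -0.08, interval -0.44 to 0.29. Of the other 4 Igf1r probe sets, 3 passed in each comparison with WT and all 4 had a negative difference in both, from -1.59 to -0.23.

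Igf2r, which clears IGF2, was lower in Rb1KO and TKO. The arrays read 11.44, 11.43 and 12.66 in WT, 9.76, 9.43 and 9.71 in Rb1KO, 9.86, 9.99 and 11.03 in TKO and 10.97, 10.50 and 11.11 in TKO-Ras. WT and Rb1KO sat at the ends of the order, with no array shared with the groups between them, and TKO and TKO-Ras overlapped. Rb1KO was 4.63-fold lower than WT (-2.21, SE 0.36, adjusted p = 0.001) and TKO 2.93-fold lower (-1.55, SE 0.36, adjusted p = 0.01). WT replicate 3 was 1.23 above the other WT arrays, and without it the differences were -1.80 (adjusted p = 0.001) and -1.14 (adjusted p = 0.018). With TKO and WT compared alone, the TKO call was lost (adjusted p = 0.065). TKO against Rb1KO (0.66, interval -0.13 to 1.45) and TKO-Ras against TKO (0.57, interval -0.22 to 1.36) did not pass. The second probe set gave the same calls, at -2.18 and -1.47 against WT.

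Igfbp2, a secreted binding protein abundant in fetal tissues, was the gene chosen by its fall. It read 14.20, 14.19 and 13.46 on the WT arrays, near the top of the range of the arrays (14.92). It read 4.25, 4.55 and 4.51 in Rb1KO, 4.02, 6.01 and 3.94 in TKO and 4.03, 4.11 and 3.87 in TKO-Ras. Only TKO replicate 2 exceeded background among the 9 knockout arrays. With arrays under background set to 5.13, Igfbp2 was at least 450-fold lower than WT in Rb1KO, at least 367-fold lower in TKO and at least 450-fold lower in TKO-Ras. With the 99th percentile of the olfactory probe sets as the limit, the bounds were 280, 268 and 280. Without WT replicate 3, the lowest WT array, the measured difference was -9.54 in TKO against -9.29 with it, and -9.76 against -9.51 in Rb1KO. The array has 1 Igfbp2 probe set, so no second reading exists.

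Over the 12 arrays the genes most like Igfbp2, among 12628 genes above background on at least 3 arrays, were Lama2 (r = 0.991), which encodes a laminin chain, the chondroitin synthase gene Chsy3 (0.989), Gspt2 (0.986), and the zinc finger factors Zic1 (0.986) and Klf12 (0.985). Lama2 lay at 9.73 to 10.12 in WT and at 5.79 to 6.53 in the knockouts. Zic1 lay at 7.38 to 9.22 in WT and at 2.78 to 3.23, under background, in the knockouts. These points share the split between 3 WT and 9 knockout arrays and are a description. Igfbp5 is the neighbour of Igfbp2 on mouse chromosome 1, with 0 protein-coding genes between them in the RefSeq annotation. The probe set used for Igfbp5 followed a different course from Igfbp2. The other Igfbp5 probe set had its highest mean in WT (7.83) and lower means in Rb1KO, TKO and TKO-Ras (6.65, 6.43 and 4.39). It spread widely in WT and passed in no comparison.

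Igfbp5, an abundant binding protein of connective tissue, gave a flat reading from the probe set used. WT arrays read 6.57, 6.57 and 6.70, Rb1KO 6.95, 7.12 and 6.85, TKO 6.71, 6.65 and 6.66 and TKO-Ras 6.80, 6.78 and 6.86. All 12 arrays lay between 6.57 and 7.12, and the Rb1KO group was highest. Rb1KO exceeded WT by 0.36 (SE 0.0912, adjusted p = 0.014), a call lost without Rb1KO replicate 2 (0.29, adjusted p = 0.06) or with the groups compared alone (adjusted p = 0.064), and TKO did not pass (0.06, adjusted p = 0.71). Without WT replicate 3 these differences were 0.40 (adjusted p = 0.015) and 0.10 (adjusted p = 0.56). The second Igfbp5 probe set disagreed, spreading from 5.11 to 11.43 over the WT arrays with group means of 7.83, 6.65, 6.43 and 4.39 in WT, Rb1KO, TKO and TKO-Ras. It lay at background on every TKO-Ras array, passed in no comparison, and gave -1.18 in Rb1KO against WT (adjusted p = 0.53) where the probe set used gave 0.36. The rise in Rb1KO was thus seen in 1 of 2 probe sets.

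Igfbp3, the main carrier of IGFs in blood and a product of stromal cells, had a spread in WT that was wide beside its differences. WT arrays read 5.44, 4.69 and 8.35, Rb1KO 7.69, 8.17 and 7.17, TKO 7.26, 9.18 and 7.02 and TKO-Ras 6.09, 6.76 and 5.93. WT replicate 3 lay 3.29 above the other WT arrays, which were near or below background. No comparison passed with all arrays (TKO against WT 1.66, adjusted p = 0.2, and Rb1KO against WT 1.52, adjusted p = 0.22). With WT replicate 2 set to background the bounds were at least 2.85-fold and 2.58-fold, or 2.23-fold and 2.02-fold at the 99th percentile. Without WT replicate 3 both passed, at 2.76 (adjusted p = 0.004) and 2.61 (adjusted p = 0.0048). Every TKO-Ras array was below every TKO array, with a difference of -1.56, interval -3.36 to 0.23, that did not pass (adjusted p = 0.34). The pooled spread behind this interval includes WT, with SDs of 1.94 in WT, 1.18 in TKO and 0.44 in TKO-Ras. The second probe set gave smaller differences, 0.79, 0.88 and -1.45, in the same comparisons.

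Igfbp4, a binding protein that restrains IGF action and is cut by the protease PAPP-A, was lowest in Rb1KO and highest in TKO-Ras and TKO. WT arrays read 10.19, 10.46 and 13.47 and Rb1KO arrays 9.01, 8.95 and 9.43. TKO arrays read 12.51, 11.66 and 12.46 and TKO-Ras arrays 12.49, 12.52 and 12.01. Every TKO array exceeded every Rb1KO array, and WT replicate 3, 3.14 above the other WT arrays, was above all TKO arrays. TKO was 8.47-fold higher than Rb1KO in the direct test (3.08, SE 0.665, adjusted p = 0.016). Rb1KO was 4.73-fold lower than WT (-2.24, adjusted p = 0.031, and -1.19, adjusted p = 0.0054 without WT replicate 3). TKO against WT did not pass (0.84, adjusted p = 0.44), and without WT replicate 3 it did (1.89, adjusted p = 0.00032). TKO-Ras and TKO differed by 0.13, interval -1.33 to 1.59. All 6 Igfbp4 probe sets were higher in TKO than in Rb1KO, by 2.02 to 5.37, and 5 of them passed. In Rb1KO against WT the probe set at -1.33 did not pass (adjusted p = 0.18). The others did, at -4.48 to -2.24 (adjusted p = 0.00099 to 0.031), with the probe set used giving the smallest of these falls. With the probe set used, the call in TKO against Rb1KO was lost without Rb1KO replicate 1 or 2 or TKO replicate 1 or 3 (2.93 to 3.02, adjusted p = 0.057 to 0.06), and that in Rb1KO against WT without any 1 Rb1KO array (-2.39 to -2.15, adjusted p = 0.061 to 0.09). Both were also lost without moderation (adjusted p = 0.068 and 0.085), and the second with the groups compared alone (adjusted p = 0.11).

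Igfbp6, which prefers IGF2 over IGF1, rose in steps from WT to Rb1KO to TKO. WT arrays read 5.25, 5.30 and 5.65, just above background, and Rb1KO arrays 7.41, 6.98 and 6.99. TKO arrays read 10.15, 9.49 and 10.26 and TKO-Ras arrays 9.31, 9.87 and 10. The 3 groups WT, Rb1KO and TKO did not overlap, while TKO-Ras overlapped TKO. TKO was 23.7-fold higher than WT (4.57, SE 0.234, adjusted p = 4.3e-07), or at least 17.8-fold with the 99th percentile as the limit for WT. Rb1KO was 3.32-fold higher than WT (1.73, SE 0.234, adjusted p = 3e-04), with a bound of at least 2.49-fold. TKO was 7.14-fold higher than Rb1KO in the direct test (2.84, SE 0.234, adjusted p = 2.6e-05). TKO-Ras and TKO differed by -0.24, interval -0.75 to 0.27. Leaving out WT replicate 3 gave 4.69 and 1.86 against WT. The array has 1 Igfbp6 probe set.

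Igfbp7, a secreted relative of the binding proteins with low affinity for IGFs, fell in the same steps in which Igfbp6 rose. WT arrays read 13.87, 14.06 and 12.42, Rb1KO 11.41, 11.86 and 11.52, TKO 9.18, 8.32 and 9.63 and TKO-Ras 8.93, 9.18 and 9.55. The WT, Rb1KO and TKO groups did not overlap, and TKO-Ras lay within the range of TKO. TKO was 21.2-fold lower than WT (-4.40, SE 0.415, adjusted p = 3.2e-05), Rb1KO 3.62-fold lower than WT (-1.86, adjusted p = 0.0072), and TKO 5.85-fold lower than Rb1KO (-2.55, adjusted p = 0.003). WT replicate 3 differed from the mean of the other WT arrays by -1.55, toward the knockouts, and without it the differences from WT were -4.92 and -2.37. A second probe set was lower in both comparisons with WT, at -3.33 in TKO (adjusted p = 0.0011) and -2.32 in Rb1KO (adjusted p = 0.0086), and did not pass in TKO against Rb1KO (-1.01, adjusted p = 0.33). That probe set was under background on every TKO array (4.13 to 4.64) and at 5.15 to 5.67 in Rb1KO, so its differences from TKO are limited by background. The last probe set lay between 6.71 and 7.34 on all arrays and passed in none.

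**Figure D2:**
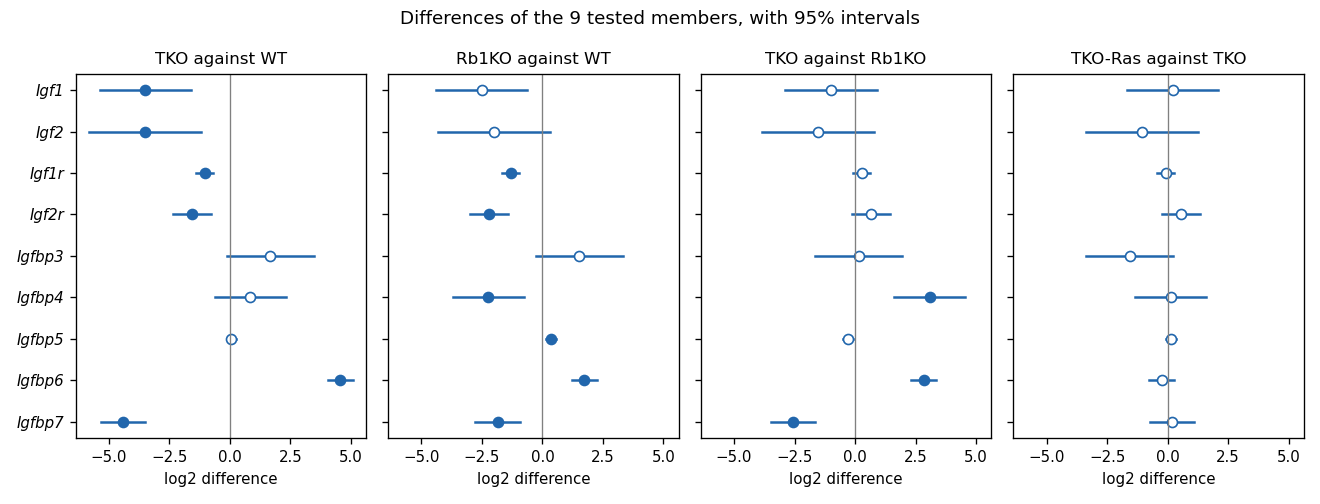
Log2 difference (x axis) of the 9 tested genes (y axis) in 4 comparisons. Points are fitted differences, lines are 95% intervals, and filled points passed an adjusted p under 0.05. In the last panel, TKO-Ras against TKO, all 9 intervals cross 0.

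**Figure D3:**
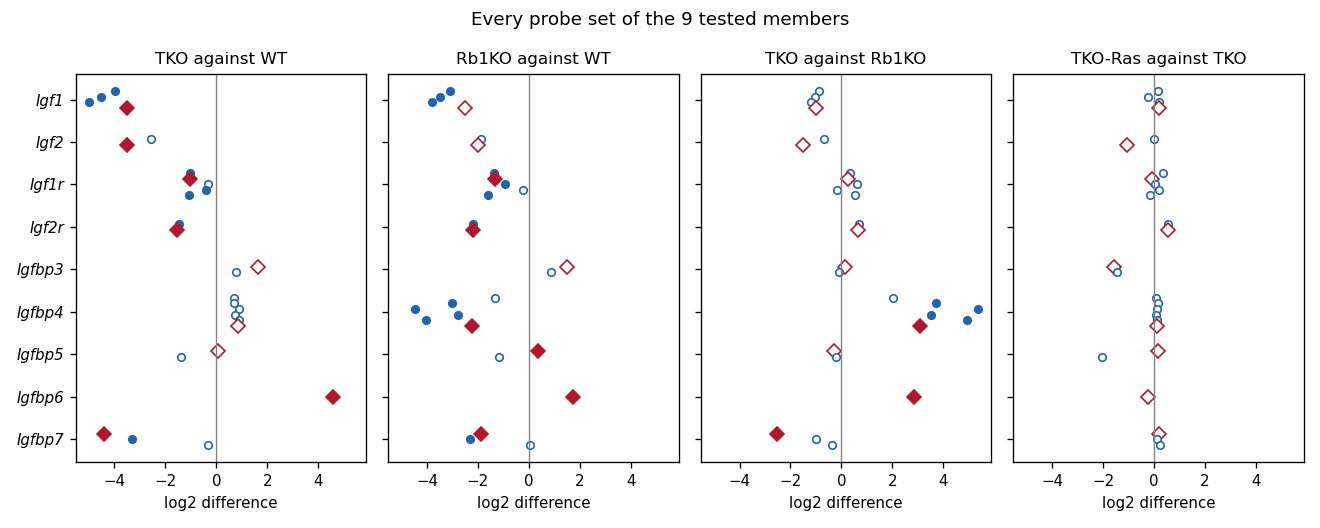
Log2 difference (x axis) given by every probe set of the 9 tested genes (y axis). Red diamonds are the probe sets used, blue circles the others, and filled marks passed. The Igfbp4 probe sets all lie right of 0 in TKO against Rb1KO, while those of Igfbp5 and Igfbp7 spread apart.

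**Figure D4:**
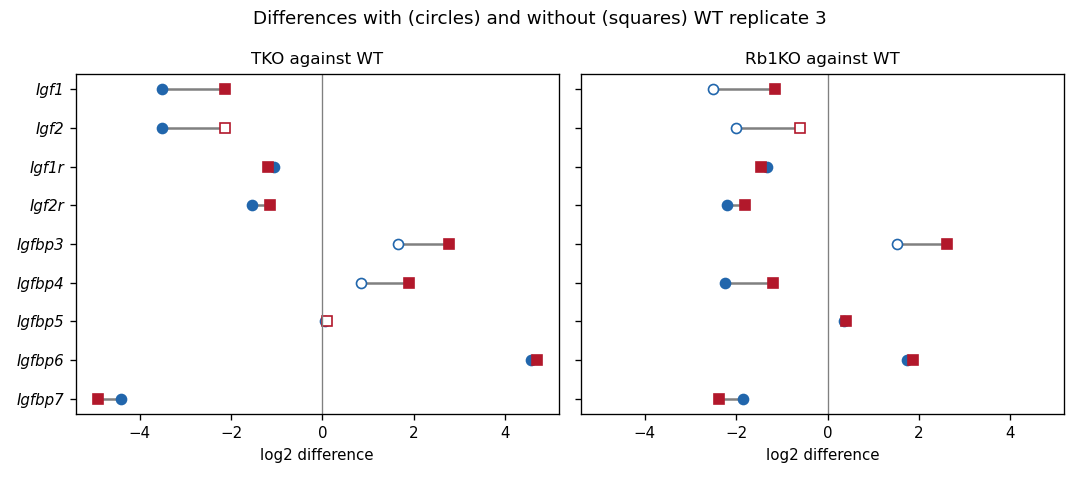
Log2 difference (x axis) of the 9 tested genes (y axis) in both comparisons with WT, with all arrays (blue circles) and without WT replicate 3 (red squares), filled where passed. In TKO against WT, Igf1 moved from -3.50 to -2.13 and Igfbp4 from 0.84 to 1.89, while Igfbp6 moved from 4.57 to 4.69.

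The rest of the pathway was read from 4 lists with 61 genes, of which 55 were measured. Over these, 5 were higher and 8 lower in TKO against WT, 3 and 12 in Rb1KO against WT, 6 and 2 in TKO against Rb1KO, and 3 and 6 in TKO-Ras against TKO. Their median differences, -0.08, -0.06, 0.03 and -0.02, were near those of all genes, and 9.09% were higher and 14.5% lower in TKO against WT, beside 13.6% and 9.9% of all genes. In Rb1KO against WT the shares were 5.45% and 21.8%, beside 15.6% and 12.3% of all genes. In TKO against Rb1KO they were 10.9% and 3.64%, beside 5.92% and 3.63%. In TKO-Ras against TKO they were 5.45% and 10.9%, beside 3.19% and 4.17%.

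Among 9 genes that act on the ligands and binding proteins, 2 of the proteases, Pappa and Htra1, were lower in TKO and in Rb1KO than in WT. Pappa, which encodes the Igfbp4-cleaving protease PAPP-A, read 11.10, 10.98 and 10.26 in WT, 7.38, 8.13 and 7.26 in Rb1KO, 6.62, 7.81 and 7.44 in TKO and 3.72, 3.69 and 3.99 in TKO-Ras. It was 11.2-fold lower in TKO than in WT (-3.49, SE 0.321, adjusted p = 2.9e-05) and 9.11-fold lower in Rb1KO (-3.19, adjusted p = 4.1e-05). Every TKO-Ras array was under background, which puts Pappa at least 4.46-fold below its level in TKO (adjusted p = 0.00011). With the 99th percentile as the limit, the bound was at least 2.78-fold. Stc2, encoding stanniocalcin-2, an inhibitor of PAPP-A, went the other way. It read 6.47, 6.27 and 6.25 in WT, 6.49, 6.53 and 6.49 in Rb1KO, 7.57, 7.76 and 7.33 in TKO and 8.29, 8.51 and 8.48 in TKO-Ras. TKO exceeded WT by 1.22 (adjusted p = 4.4e-05) and Rb1KO by 1.05 (adjusted p = 0.00029), and TKO-Ras exceeded TKO by 0.88 (adjusted p = 0.0015). Htra1, a secreted serine protease, was 5.91-fold lower in TKO (-2.56, adjusted p = 0.00026) and 6.37-fold lower in Rb1KO (-2.67, adjusted p = 0.00016) than in WT. Stc1 was near background, and its difference of -0.73 in TKO against Rb1KO (adjusted p = 0.045) has a bound of at least 1.6-fold, leaves no difference at the 99th percentile (5.82), and was lost without any 1 of 5 arrays of these groups (-0.77 to -0.58, adjusted p = 0.1 to 0.17). The 9 genes counted 1 higher and 2 lower in TKO against WT, beside 13.6% and 9.9% of all genes. Igfbp1, Igfals, Igfbpl1, Ins2 and Pappa2 passed in none of the comparisons.

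Of 14 receptors and adaptors, 1 was higher and 1 lower in TKO against WT, and 1 and 5 in Rb1KO against WT, beside 13.6% and 9.9%, and 15.6% and 12.3%, of all genes. Grb10, an imprinted adaptor that restrains the insulin and IGF1 receptors, read 12.98, 13.16 and 10.17 in WT, 5.97, 5.05 and 5.77 in Rb1KO, 8.60, 8.52 and 8.72 in TKO and 7.00, 8.41 and 7.45 in TKO-Ras. It was 90.8-fold lower in Rb1KO than in WT (-6.51, adjusted p = 4.1e-05) and 11.2-fold lower in TKO (-3.49, adjusted p = 0.0031). With 1 Rb1KO array at background the bound for Rb1KO is at least 89.2-fold. At the 99th percentile, with 2 Rb1KO arrays at or under the limit, it is at least 75.3-fold. WT replicate 3 was the low WT array. Without it the differences in Rb1KO and TKO grew to -7.47 (adjusted p = 9.7e-08) and -4.45 (adjusted p = 5.6e-06). TKO exceeded Rb1KO by 3.02 (adjusted p = 0.017), a call lost when its 3 probe sets were averaged (0.96, adjusted p = 0.29), of which 2 had means under background in the knockouts. It was also lost without Rb1KO replicate 2 or 3 or TKO replicate 2 or 3 (2.75 to 3.10, adjusted p = 0.05 to 0.071). Irs1, which docks the receptors to PI3K, was lower in Rb1KO than in WT (-1.43, adjusted p = 0.023) and higher in TKO than in Rb1KO (2.01, adjusted p = 0.0097). The first of these was lost without WT replicate 1 or Rb1KO replicate 2 or 3 (-1.46 to -1.22, adjusted p = 0.054 to 0.09). Irs2 was higher in TKO than in WT by 0.84 (adjusted p = 0.003). Grb14, a relative of Grb10, was higher in Rb1KO than in WT (2.09, adjusted p = 0.00089), lower in TKO than in Rb1KO (-1.97, adjusted p = 0.0038) and lower again in TKO-Ras than in TKO (-1.65, adjusted p = 0.014, and lost without TKO replicate 3 or TKO-Ras replicate 1 or 3, adjusted p = 0.051 to 0.064). Gab1, a docking protein, was lower in TKO-Ras than in TKO (-1.26, adjusted p = 0.0061).

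Of 24 genes of PI3K, Akt, FoxO and mTOR signalling, 2 were higher and 3 lower in TKO against WT, and 1 and 2 in TKO-Ras against TKO, beside 13.6% and 9.9%, and 3.19% and 4.17%, of all genes. Foxo1, a transcription factor that Akt keeps out of the nucleus, was lowest in Rb1KO and highest in TKO. Its differences were -1.18 in Rb1KO against WT (adjusted p = 0.00032), 0.64 in TKO against WT (adjusted p = 0.016), 1.82 in TKO against Rb1KO (adjusted p = 4.2e-05) and -0.92 in TKO-Ras against TKO (adjusted p = 0.0064). Rictor, a subunit of mTOR complex 2, was lower in Rb1KO than in WT (-1.38, adjusted p = 0.0017), higher in TKO than in Rb1KO (1.57, adjusted p = 0.0022) and lower in TKO-Ras than in TKO (-1.03, adjusted p = 0.032). Pik3r3, a regulatory subunit of PI3K, was lower in Rb1KO than in WT (-1.53, adjusted p = 0.0076). Phlpp1, an Akt phosphatase, and Tsc2, which restrains mTOR complex 1, were lower in TKO than in WT by small amounts (-0.73, adjusted p = 0.012, and -0.43, adjusted p = 0.041), and Mtor was higher in TKO-Ras than in TKO by 0.47 (adjusted p = 0.047). Of these calls, that of Rictor in TKO-Ras against TKO was lost without TKO replicate 2 or 3 or any 1 TKO-Ras array (-1.09 to -0.95), and that of Mtor without any 1 TKO array or TKO-Ras replicate 1 or 3 (0.40 to 0.54). In TKO against WT, that of Tsc2 was lost without WT replicate 1 or 3 or any 1 TKO array (-0.48 to -0.30), that of Foxo1 without WT replicate 1 (0.57) or TKO replicate 2 (0.52) and that of Phlpp1 without TKO replicate 2 (-0.66, adjusted p = 0.05). Averaging all probe sets also lost Rictor (-0.65, adjusted p = 0.082) and Mtor (0.25, adjusted p = 0.13) in TKO-Ras against TKO.

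Of 8 regulators of Igf2 and its RNA, Plagl1, an imprinted zinc finger factor that activates Igf2, separated the groups most. It read 11.13, 11.55 and 12.89 in WT, 3.11, 3.56 and 3.08 in Rb1KO, 9.04, 8.94 and 8.87 in TKO and 9.15, 9.03 and 9.27 in TKO-Ras. Every Rb1KO array was under background, at least 105-fold below WT (adjusted p = 6.7e-08), and TKO was 7.49-fold lower than WT (-2.90, adjusted p = 0.00014) and at least 14.1-fold higher than Rb1KO (adjusted p = 2e-06). With the 99th percentile as the limit these bounds were 65.7 and 8.77. The Plagl1 probe set used is 1 of 3, and the other 2 were near or at background in all knockout groups, with -0.07 in TKO against Rb1KO in the brighter of them (adjusted p = 0.9). Igf2bp3, which binds Igf2 RNA, was lower in TKO than in WT (-1.67, adjusted p = 0.016) and lower in TKO-Ras than in TKO (-1.82, adjusted p = 0.028), calls lost without TKO replicate 2 (-1.65 and -1.85), and the second also without TKO replicate 1 or 3 or TKO-Ras replicate 1 or 2 (-1.82 to -1.56). Its probe sets disagreed in TKO-Ras against TKO: the brightest without a suffix read 7.28 in TKO and 7.22 in TKO-Ras (-0.06, adjusted p = 0.91), while 4 others had means of 5.23 to 7.37 in TKO and 3.29 to 4.15, under background, in TKO-Ras. Without WT replicate 3 the difference in TKO against WT was -1.09 (adjusted p = 0.013). Hmga2, a chromatin protein of growing cells, was 3.49-fold higher in TKO-Ras than in TKO (1.80, adjusted p = 0.013), a call lost without TKO replicate 3 (1.52) or TKO-Ras replicate 3 (1.68). Ctcf, the insulator protein of the Igf2 locus, was higher than in WT by 0.68 in TKO (adjusted p = 0.00034) and 0.64 in Rb1KO (adjusted p = 0.00042). Without moderation of the variance, pathway calls were lost for Tsc2 and Igf2bp3 in TKO against WT, Irs1 in Rb1KO against WT, Stc1 and Grb10 in TKO against Rb1KO and Rictor, Mtor, Grb14, Igf2bp3 and Hmga2 in TKO-Ras against TKO (adjusted p = 0.055 to 0.1). With the groups compared alone, those of Phlpp1, Tsc2 and Igf2bp3 in TKO against WT, Irs1 in Rb1KO against WT and Mtor in TKO-Ras against TKO were lost (adjusted p = 0.071 to 0.1). Among the pathway genes named, leaving out WT replicate 3 lost the Tsc2 call only. By the probe sets used, the imprinted genes Igf2r, Grb10 and Plagl1 had their lowest group mean in Rb1KO, and Igf2 had its lowest in TKO-Ras. The other probe sets of Grb10 and Plagl1, near or under background in the knockouts, did not all have their lowest mean in Rb1KO.

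**Figure D5:**
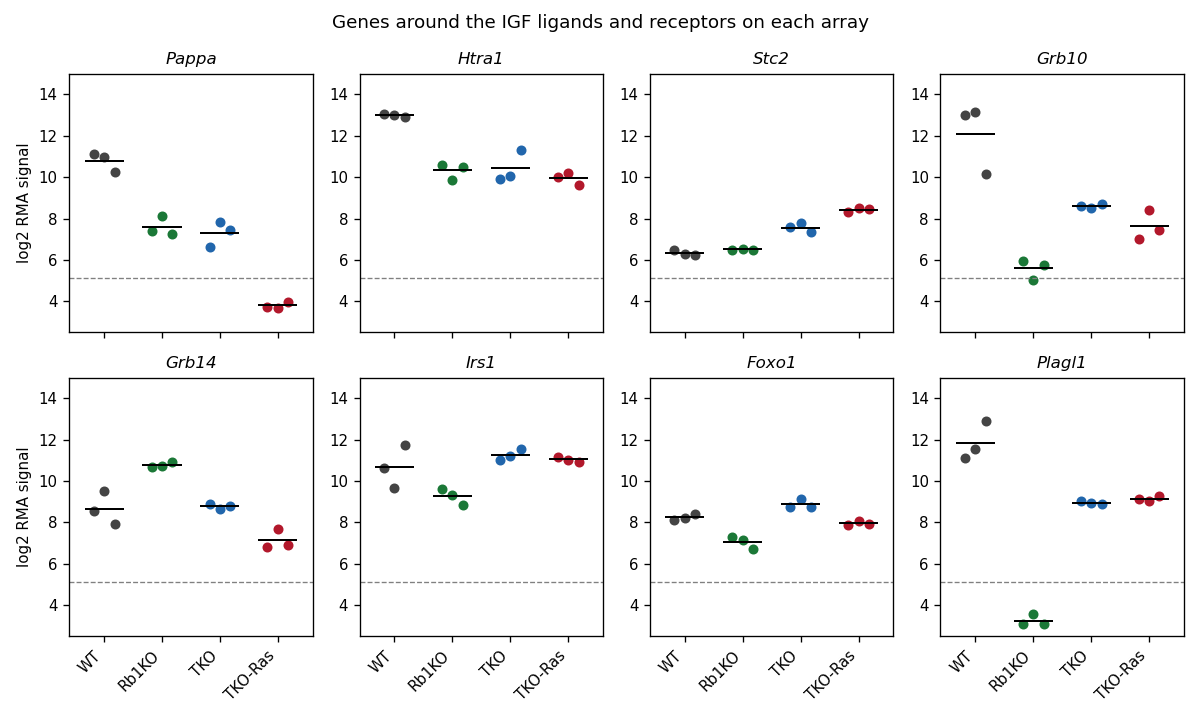
Log2 RMA signal (y axis) of 8 genes around the ligands and receptors on every array, by group (x axis). Points are arrays, short lines group means and the dashed line the background of 5.13. Pappa falls to background in TKO-Ras, Stc2 is highest there, and Grb10 and Plagl1 are lowest in Rb1KO.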

How the data were processed

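Total RNA from 12 MEF samples (100 ng each) was labelled with the 3' IVT Express kit. The deposited values are log2 signals that the authors made with RMA in Partek Genomics Suite 6.5, one value per probe set and array, from 2.18 to 14.92. The number of arrays limits the precision. RMA shares probe effects over all arrays. A change in dim probe sets can be understated, which was not tested here. Probe sets were named through GEO's platform annotation and RefSeq: of 45037 non-control probe sets, 34945 had 1 symbol, 932 several and 9160 none.

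Group differences came from limma 3.58.1 (R 4.3.3), with all 12 arrays in one fit (8 residual degrees of freedom), by 2-sided contrasts with Benjamini-Hochberg adjustment over all 45037 probe sets and a threshold of 0.05. The fit pools the spread of all groups, so WT enters the intervals and p-values of comparisons without WT as well. No filter on low values was applied. The script was tested on simulated data. Members and lists were chosen with earlier results of these data known. Named were all 10 members, up to 3 called genes with the largest difference per pathway list and comparison whose groups did not overlap, and the 5 genes with the highest Pearson r to Igfbp2. A few genes of the pathway lists were not analysed here. "At least" folds set arrays under background to the background level before averaging. Alternatives were contrasts without moderation (as in the methods), an intensity trend, a replicate block, 2 other normalizations, a filter on dim probe sets, 2 other choices of probe set, the compared groups alone, 2 other background levels and each array left out. Figures used Python 3.11.15 and matplotlib 3.10.9.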

Additional observations from a re-analysis of the deposited data

Results flagged for a closer look

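In TKO and in Rb1KO, the same contrast against WT gave different results for 3 members, each by a direct test of TKO against Rb1KO. Igfbp4 differed by 3.08, Igfbp6 by 2.84 and Igfbp7 by -2.55 on the log2 scale. Among the genes around the axis, the same direct test separated Plagl1 by 5.70, Grb10 by 3.02, Irs1 by 2.01, Grb14 by -1.97, Foxo1 by 1.82, Rictor by 1.57, Stc2 by 1.05 and Stc1 by -0.73. Plagl1 was under background in Rb1KO, so its fold is a bound of at least 14.1, and its brighter other probe set gave -0.07 (adjusted p = 0.9). The Grb10 call was lost with its probe sets averaged (0.96, adjusted p = 0.29). Stc1 was near background and leaves no difference at the 99th percentile. Rbl2 was under background on the arrays labelled Rb1KO, and the origin of those cells is not given in the sources used here, so Rbl1 and origin cannot be told apart in this comparison. Groups of 3 arrays were too small for a search by rule for single outlying arrays. WT replicate 3 stood apart by its correlations, and results without it are given above.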

How the results depend on the processing

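Of 15 member differences called, 9 kept their call and direction under all alternatives run, and of 21 not called, 7 were called under some alternative. Compared alone, TKO and WT gave 3 member calls (6 in the fit of all arrays) and 8 pathway calls (13). Calls over all genes in TKO against WT also moved. They ran from 2961 to 4527 over the alternatives other than leaving out an array, against 4274 in the main fit. Contrasts without moderation gave 4 pathway calls in TKO-Ras against TKO (9) and 923 calls over all genes (1339). With 1 array left out, pathway calls ran from 8 to 14 in TKO against WT and from 4 to 8 in TKO-Ras against TKO, and calls over all genes in the latter from 747 to 1155, against 1339, the lowest without TKO replicate 2. Signs turned with the mean of all probe sets for Igfbp5 in TKO and Rb1KO against WT and TKO-Ras against TKO (-0.67, -0.41 and -0.95) and for Igf1r in TKO-Ras against TKO (0.07). With probe sets without a suffix they turned for Igf1 in TKO-Ras against TKO (-0.23) and Plagl1 in TKO against Rb1KO (-0.07). With 1 array left out, differences near 0 turned for Igfbp3 (-0.54 to 0.54) and Igfbp2 (-0.46 to 0.58) in TKO against Rb1KO, and in TKO-Ras against TKO for Igfbp2 (-1.01 to 0.03), Igfbp4 (-0.14 to 0.30), Igfbp7 (-0.19 to 0.47) and Igf1r (-0.24 to 0.05), the turned value coming without TKO replicate 2, or TKO replicate 3 for Igf1r. For Igfbp3 the sign also turned without Rb1KO replicate 3 (-0.11). The cause was not tested. Same-numbered arrays of different groups deviated together little, with r = -0.207 to 0.311 and a median of 0.049 over 18 pairs. The 36 pairs with different numbers gave -0.383 to 0.322 and a median of -0.048. By mean correlation with the other groups, 7 of 12 arrays matched their own number best, and a pairing was not tested. The replicate block gave 6, 6, 3 and 0 member calls, as without it. Signal near background limits Igf1, Igfbp2, Igfbp3 and Igfbp6, where folds are bounds in the groups named. At the median background of 3.84 no Igfbp2 array was at the limit, so no bound was set, and Igfbp2, Igfbp4 and Igfbp5 have no probe set without a suffix.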

Other observations

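Among the TKO arrays, replicate 2 read highest for Igfbp2 (6.01), Igfbp3 (9.18) and Igf2 (8.41) and lowest for Igfbp4 (11.66), Igfbp6 (9.49) and Igfbp7 (8.32). TKO replicate 3 read highest for Igf2r, at 11.03 against 9.86 and 9.99. The summed signal of 8 epithelial markers was 10.50 to 11.13 on TKO-Ras arrays and 8.63 to 9.66 on all others, with Krt19 carrying the sum in TKO-Ras (10.20 to 10.93) and Cdh1, Krt18, Krt14 and Cldn4 at background in every group. The summed signal of 12 fibroblast markers was 16.81 to 17.13 in WT, 16.16 to 16.27 in Rb1KO, 16.39 to 16.49 in TKO and 16.06 to 16.14 in TKO-Ras. Igf1os lay under background on all 12 arrays.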
